A study of Mus musculus with 18 samples.

Results

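The 9 genes described here encode transcription factors that carry neural progenitors through commitment and into the neuronal state. They are the proneural factors Neurog1 and Neurog2, the factors Neurod1 and Neurod4, the factors Nhlh1 and Nhlh2, the Ebf factors Ebf2 and Ebf3, and the zinc finger factor Insm1. The members were fixed by name, and their measurements are the probe sets to which the array's annotation gives a listed symbol and no other. That rule gave 9 of 18193 genes and 18 of 45037 probe sets.

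RNA came from HBG3, a mouse ES cell line that carries a GFP reporter under the control of the motor neuron gene Hb9 (Mnx1), and every group shares that line. There were 6 stages on 18 arrays. Undifferentiated ES cells were sampled at day 0 on 3 arrays and untreated embryoid bodies, the aggregates such cells form, at day 2 on 4 arrays. The day 2 embryoid bodies exposed to retinoic acid (RA) for 8 h gave 2 arrays. Day 3 (3 arrays) is labelled neural precursors, day 4 (3) progenitor motor neurons, and day 7 (3) postmitotic motor neurons. RA and a hedgehog agonist were given on day 2, so that the day 3, 4 and 7 cultures had received both. For the 8 h arrays the labels give RA alone as the agent, and no source used here says whether the agonist was there as well. Total RNA was taken from ES cells or whole embryoid bodies, so a stage name describes the culture and not a purified cell type, and a change in the number of cells that express a gene cannot be told apart from a change in the amount of RNA per cell. ES cells were kept on feeder cells for expansion and on gelatin for the experiments.

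The proneural bHLH proteins Neurog1 and Neurog2 bind DNA as dimers with E proteins at E-boxes and start a cascade in which Neurod and Nhlh family genes follow. They also switch on Notch ligands, through which a committing cell holds its neighbours in the progenitor state by way of Hes repressors. Id proteins hold E proteins away from proneural partners, and Rest represses neuronal genes outside neurons. In the spinal cord, proneural genes are active in cycling and newly committed progenitors and are shut down as neurons mature, whereas Ebf factors act in the migrating and differentiating cell.

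RefSeq promoter sequence (GRCm38.p6) was held for 7 of the 9 genes, with 8 start sites because Neurod4 has 2, and was not used here for Ebf2 and Insm1. E-boxes, CANNTG on either strand, were looked for in the 250 bases before each start. Within them the form CAGATG, which reads CATCTG on the opposite strand, was looked for separately. Those windows are shown for Neurog2, the proneural gene with the larger rise into day 3, and for the pair of Nhlh genes that rose between day 3 and day 4. E-boxes are in capitals. The Neurog2 window is chr3:127632886-127633135 on the plus strand, that of Nhlh1 chr1:172057597-172057846 on the minus strand and that of Nhlh2 chr3:102009895-102010144 on the plus strand, each read 5′ to 3′ toward the gene.
Neurog2: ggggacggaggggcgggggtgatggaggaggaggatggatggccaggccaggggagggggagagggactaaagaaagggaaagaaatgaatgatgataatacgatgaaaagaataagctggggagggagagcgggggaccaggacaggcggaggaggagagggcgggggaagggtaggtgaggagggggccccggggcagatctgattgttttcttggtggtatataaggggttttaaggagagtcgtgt
Nhlh1: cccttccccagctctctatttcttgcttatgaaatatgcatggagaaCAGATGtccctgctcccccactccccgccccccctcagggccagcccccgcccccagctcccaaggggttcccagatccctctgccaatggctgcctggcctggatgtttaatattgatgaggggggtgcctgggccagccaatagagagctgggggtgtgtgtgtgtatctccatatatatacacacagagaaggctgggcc
Nhlh2: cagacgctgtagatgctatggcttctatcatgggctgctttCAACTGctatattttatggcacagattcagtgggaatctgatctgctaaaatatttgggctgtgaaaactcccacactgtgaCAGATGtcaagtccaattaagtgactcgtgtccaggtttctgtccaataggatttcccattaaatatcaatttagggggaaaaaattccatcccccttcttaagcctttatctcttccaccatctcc
The Nhlh1 window held 1 E-box and that of Nhlh2 held 2, and CAGATG occurred in both. The Neurod1 window held 1 E-box, CATATG. No E-box of these letters lay in the windows of Neurog1, Neurog2, Neurod4 or Ebf3. Over the 32851 promoters of the table, 66.2% held an E-box in the same length of sequence and 14.4% held CAGATG on either strand. These matches describe letters and not bound sites.

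**Figure D1:**
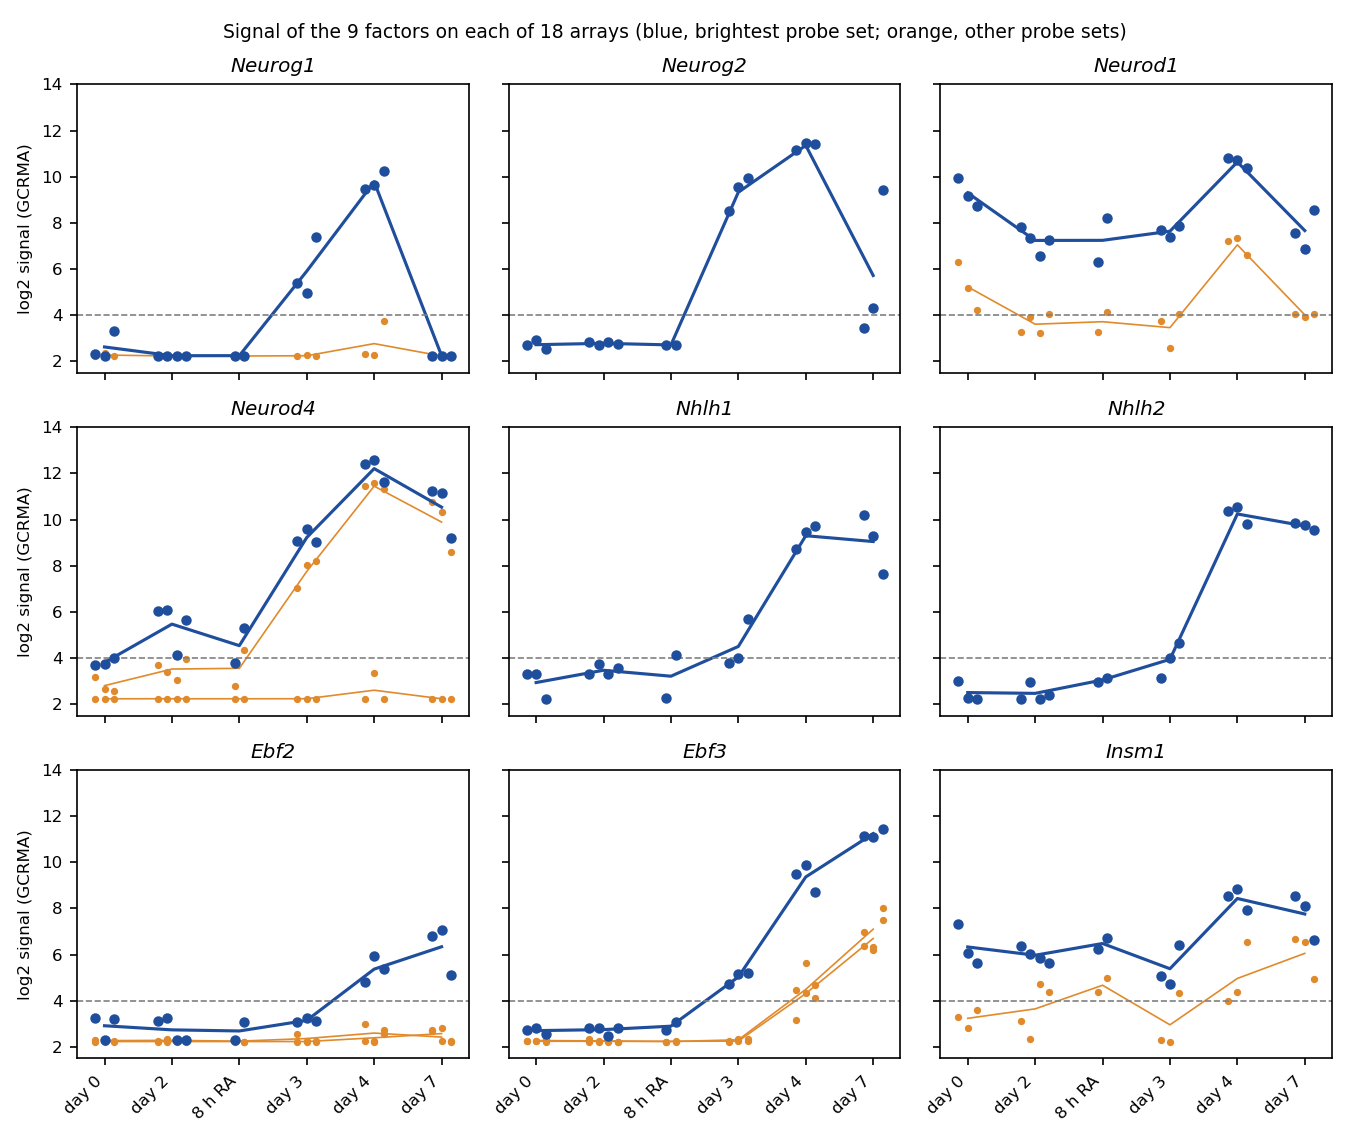
Log2 signal (y axis) of every probe set of the 9 genes on each of the 18 arrays by stage (x axis). Points are arrays, lines join stage means, blue is the probe set with the highest mean, orange the others, and the dashed line is the background level of 4. Neurog1, Neurog2 and Neurod1 peak at day 4 and are lower at day 7, whereas Ebf3 is highest at day 7.

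Most of the 9 genes lay at or under the background level before day 3 and reached their highest stage mean at day 4 or day 7. The values are log2 signals as deposited. The background level was set at a log2 signal of 4, under which 55.2% to 56.9% of probe sets fell, depending on the array. Calls were made per gene, from any of its probe sets with a limma adjusted p under 0.01 and a change of 2-fold or more. Values given for a gene are those of its brightest probe set, and a fold change against a stage with every array under 4 is a lower bound, computed with that stage's mean set to 4. Signals of different probe sets are not on a common scale and were not compared with each other.

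At day 0 and day 2 only Neurod1, Neurod4 and Insm1 were measured above the background level on most arrays of either stage. From day 0 to day 2, 0 of the 9 genes were called higher and 0 lower, against 2.02% and 2.46% of all genes. At an unadjusted p under 0.05 in limma, the counts on the brightest probe sets were 1 (Neurod4) and 1 (Neurod1). From day 2 to 8 h of RA the counts were again 0 and 0, against 0.363% and 0.0715% of all genes, and 0 and 0 at an unadjusted p under 0.05. In the later comparisons with 0 genes called lower, 0 were lower at that unadjusted p too. Neurog1 and Neurog2 were under the background level on both 8 h arrays. From day 2 to day 3, 4 genes were called higher (Neurog1, Neurog2, Neurod4 and Ebf3) and 0 lower, against 3.91% and 3.8% of all genes. The same 4 were called higher and 0 lower at day 3 against 8 h of RA, a comparison that shares the day 3 arrays, against 1.69% and 2.8%. These calls did not all hold when either RA array was left out, which leaves 1 array at that stage. Fewer of all genes were then called too. Without RA replicate 1 the differences were 3.66 for Neurog1, 6.64 for Neurog2, 3.94 for Neurod4 and 1.96 for Ebf3. Neurog2 also lost its call at day 3 against 8 h of RA when any 1 of the 3 day 3 arrays was left out (adjusted p = 0.0133 to 0.0231). From day 3 to day 4, 6 genes were called higher (Neurog1, Neurod1, Neurod4, Nhlh1, Nhlh2 and Ebf3) and 0 lower, against 0.627% and 0.792%. Without day 4 replicate 2, 3 of these remained called (Neurog1, Nhlh2 and Ebf3), and 82 of all genes were called higher, against 114 with every array. From day 4 to day 7, Ebf3 was called higher and 3 genes lower (Neurog1, Neurog2 and Neurod1), against 10.9% and 8.17%. At day 7 against day 2, 5 genes were called higher (Neurod4, Nhlh1, Nhlh2, Ebf2 and Ebf3) and 0 lower, against 16.2% and 15.5%.

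Arrays with the same replicate number deviated together across probe sets from day 2 to day 4. When the arrays of days 2 to 4 alone were fitted and replicate number was a block, Neurog2 and Neurod4 (2 genes) were called at day 3 against day 2 and 0 genes at day 4 against day 3. In that fit, 436 genes in all were called higher at the former step and 8 at the latter. For the 6 genes called at day 4, the blocked adjusted p of the brightest probe set ran from 0.0249 for Ebf3 to 0.0749 for Neurog1, with the sizes of the changes as in the fit of all arrays. When a step's 2 stages alone were fitted with the block, 0 of the 9 genes and 0 of all genes were called higher at either step.

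Neurog1 rose over both steps and then returned to the level it had before RA (probe set 1438551_at). It gave 2.33, 2.24 and 3.32 on the day 0 arrays, 2.24 to 2.25 on the day 2 arrays and 2.25 on both 8 h arrays. It gave 5.39, 4.96 and 7.38 at day 3, then 9.46, 9.63 and 10.27 at day 4. At day 7 all 3 arrays were at 2.25. No array of one stage overlapped the next from 8 h of RA to day 7, and every array outside days 3 and 4 lay under the background level. The rise from day 2 to day 3 was 3.66 ± 0.45 on the log2 scale (limma's standard error, adjusted p = 0.00018), at least 3.76-fold. With values raised to the background level this rise was 1.91 and was not called (adjusted p = 0.0132). The call was also lost when the 2 stages alone were fitted (adjusted p = 0.03) and in the blocked fit of days 2 to 4 (adjusted p = 0.0244). From day 3 to day 4 the rise was 3.87 ± 0.48, or 14.6-fold (adjusted p = 0.00087). From day 4 to day 7 the signal fell by 7.53 ± 0.48 (adjusted p = 1.4e-07), at least 55.1-fold. Neurog1 was the only one of the 9 with all day 7 arrays back under the background level after a rise. Its other probe set, 1450836_at, stayed under 4 on every array.

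Neurog2 had the largest change of the 9 from day 2 to day 3 (probe set 1422839_at). It gave 2.53 to 2.91 on the 9 arrays up to 8 h of RA, and 8.52, 9.55 and 9.94 at day 3. The day 4 arrays gave 11.17, 11.47 and 11.44. The rise into day 3 was 6.55 ± 1.01 (adjusted p = 0.0011), at least 40.3-fold. The further difference of 2.03 ± 1.08 at day 4 was not called (adjusted p = 0.87), although no day 3 array reached the day 4 arrays. Its standard error includes the wide spread of the day 7 arrays (standard deviation 3.22, against 0.73 at day 3 and 0.16 at day 4). In limma's fit of days 2 to 4 alone the adjusted p was 0.0381, still not called. At day 7 the arrays gave 3.46 (replicate 3), 4.30 (replicate 4) and 9.41 (replicate 5), so 2 arrays lay near the background level and 1 within the range of day 3. The fall from day 4 to day 7 was 5.64 ± 1.08, or 49.7-fold (adjusted p = 0.002). Without day 7 replicate 5 it was 7.48 (adjusted p = 9.88e-09), and without replicate 4 the fall of 4.93 was not called (adjusted p = 0.0113). Against day 2, the day 7 difference of 2.94 ± 1.01 was not called (adjusted p = 0.045), but without day 7 replicate 3 it was 4.07 and was called (adjusted p = 0.00723).

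Neurod1, a bHLH factor of differentiating neurons and of endocrine cells, was the only one of the 9 with its day 0 mean above the midpoint of its own range (probe set 1426412_at). The day 0 ES cells gave 9.97, 9.18 and 8.76. The signal was 6.56 to 7.82 at day 2, 6.30 and 8.20 with 8 h of RA, and 7.39 to 7.85 at day 3. It gave 10.82, 10.72 and 10.39 at day 4, above every array of every other stage. At day 7 it was 7.58, 6.88 and 8.55. The day 4 rise was 3.00 ± 0.52, or 8.00-fold (adjusted p = 0.0093), and the later fall was 2.97 ± 0.52, or 7.85-fold (adjusted p = 0.00096). Probe set 1426413_at showed a rise of 3.59 on the log2 scale (adjusted p = 0.0019), with its day 3 mean (3.46) below background, and a fall of 8.19-fold. The rise on the brightest probe set sat just inside the threshold and was not called in 12 of 20 alternatives, among them each fit that left out 1 day 3 or day 4 array. The difference from day 0 to day 2 was -2.06 ± 0.48 (adjusted p = 0.026) and was not called, although the arrays of the 2 stages did not overlap. It was called with dim probe sets left out (adjusted p = 0.00799). Of 6 fibroblast markers, a cell type used as feeders, 1 was called lower at day 2 than at day 0 (Col1a1), and the list's median difference was -1.57 against 0 over all genes. This collagen gene gave 8.76, 9.62 and 11.58 on replicates 1, 2 and 3 at day 0 and 4.93 to 5.45 at day 2. The summed signal of the 6 fibroblast markers was 9.10 to 11.84 on the log2 scale at day 0 and 7.14 to 7.57 at day 2, with 1 marker, Lum, under the background level on all day 0 arrays. Thy1, also on the list, gave 5.26 to 6.78 at day 0 and 5.65 to 7.10 at day 2. Neurod1 was highest on the day 0 array with the lowest Col1a1 signal. The part of feeder cells in the Neurod1 signal was not tested.

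Neurod4, a bHLH factor of committed neuronal precursors, rose with Neurog2 but stayed high (probe set 1436694_s_at). Its signal was 3.70 to 3.99 at day 0, 4.11 to 6.10 at day 2, and 3.79 and 5.28 with 8 h of RA. It was 9.06, 9.60 and 9.01 at day 3, and 12.40, 12.59 and 11.64 at day 4. The day 7 arrays gave 11.24, 11.16 and 9.22. The rise into day 3 was 3.75 ± 0.57, or 13.5-fold (adjusted p = 0.00099). At day 4 the further difference of 2.99 ± 0.61 missed the threshold on this probe set (adjusted p = 0.029), whereas 1418054_at rose by 3.70 ± 0.53, or 13.0-fold (adjusted p = 0.0028). The difference of -1.67 ± 0.61 from day 4 to day 7 was not called (adjusted p = 0.081), although the arrays did not overlap. It was -2.02, -1.98 and -1.01 without day 7 replicates 3, 4 and 5 in turn. Probe set 1418054_at differed by -1.56 ± 0.53, also without overlap and not called (adjusted p = 0.061). Compared with day 2, Neurod4 at day 7 was 33.6-fold higher (adjusted p = 1.4e-05). The remaining probe set, 1418055_at, stayed under 4 on every array.

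Nhlh1 and Nhlh2, closely related bHLH factors of newly born neurons, rose between day 3 and day 4 and were still above their day 2 level at day 7. Nhlh2 (probe set 1436888_at) gave 2.25 to 3.13 on the 9 arrays up to 8 h of RA and 3.14, 4.02 and 4.67 at day 3. It gave 10.38, 10.55 and 9.80 at day 4 and 9.85, 9.75 and 9.56 at day 7. That made the largest day 4 rise among the 9 genes, 6.30 ± 0.35 on the log2 scale (adjusted p = 7.3e-07), from a day 3 mean of 3.94 that lies under the background level. The day 3 difference of 1.47 ± 0.33 from day 2 was not called (adjusted p = 0.013), but was without day 2 replicate 2 (1.64, adjusted p = 0.00939) or day 3 replicate 1 (1.87, adjusted p = 0.00225).

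Nhlh1 (probe set 1419533_at) gave 2.24 to 3.74 at days 0 and 2, 2.29 and 4.14 with 8 h of RA, and 3.81, 4.01 and 5.70 at day 3. It gave 8.71, 9.48 and 9.72 at day 4. The rise was 4.80 ± 0.68, or 27.8-fold (adjusted p = 0.0023), and the stages did not overlap. The call was lost without day 3 replicate 1 (adjusted p = 0.0156), day 3 replicate 2 (0.0152) or day 4 replicate 2 (0.0132). At day 7 it gave 10.20, 9.30 and 7.65, the last from replicate 5. The difference of day 7 from day 4 was -0.25 ± 0.68 (adjusted p = 1) and 0.45 without replicate 5, so no direction can be given. Against day 2 the day 7 signal was at least 33.1-fold higher for Nhlh1 (adjusted p = 1.4e-05) and at least 52.8-fold for Nhlh2 (adjusted p = 2.3e-09).

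Ebf3 rose at each step from 8 h of RA on, also from day 4 to day 7, over which Neurog1 and Neurog2 fell (probe set 1452751_at). It gave 2.48 to 3.08 on the 9 arrays up to 8 h of RA, then 4.74, 5.15 and 5.21 at day 3, 9.48, 9.90 and 8.72 at day 4, and 11.15, 11.11 and 11.46 at day 7. Each of the 3 last stages lay wholly above the one before. The steps were 2.28 ± 0.23 into day 3 (at least 2.05-fold, adjusted p = 3.2e-05), 4.33 ± 0.24 into day 4 (20.1-fold, adjusted p = 8.2e-07) and 1.87 ± 0.24 into day 7 (3.67-fold, adjusted p = 9.2e-05). Probe sets 1428349_s_at and 1460666_a_at were called at the last step as well, with 6.10-fold and 5.22-fold higher signal, but neither was called at day 3. Against day 2, Ebf3 at day 7 was at least 151-fold higher (adjusted p = 1.4e-11).

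Ebf2, of the same family, was called at day 7 against day 2 but at no single step. Probe set 1418494_at gave 2.30 to 3.24 on the 12 arrays up to day 3, 4.82, 5.94 and 5.36 at day 4, and 6.82, 7.08 and 5.12 at day 7. The day 4 difference of 2.22 ± 0.49 was not called (adjusted p = 0.046), although the arrays did not overlap. Day 7 against day 2 was called, at 3.60 ± 0.46 or at least 5.07-fold (adjusted p = 3.9e-05). The other 2 probe sets stayed under 4 on every array.

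Insm1, a zinc finger factor of newborn neurons and of endocrine cells, was not called in any of the 7 comparisons in the fit of all arrays. Its brightest probe set, 1455865_at, was above the background level on every array. It gave 5.06, 4.71 and 6.40 at day 3, 8.52, 8.83 and 7.95 at day 4, and 8.54, 8.10 and 6.65 at day 7. The earlier arrays lay between 5.62 and 7.31. The day 4 difference was 3.04 ± 0.56, or 8.25-fold (adjusted p = 0.014), and the day 3 and day 4 arrays did not overlap. This difference was called without day 3 replicate 3 (3.55, adjusted p = 0.00702), with dim probe sets left out (adjusted p = 0.00299), with the brightest probe set per gene alone (adjusted p = 0.00816) and after median centring (adjusted p = 0.00984). The day 7 difference from day 2, 1.79 ± 0.52 (adjusted p = 0.02), was called without day 7 replicate 5 (2.34, adjusted p = 0.0041), with dim probe sets left out (adjusted p = 0.00656) and with probe sets averaged (adjusted p = 0.00498). The probe sets disagreed on the sign of the difference from day 4 to day 7, which was -0.67 ± 0.56 on 1455865_at and 1.09 ± 0.82 on 1421399_at, and neither was called.

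**Figure D2:**
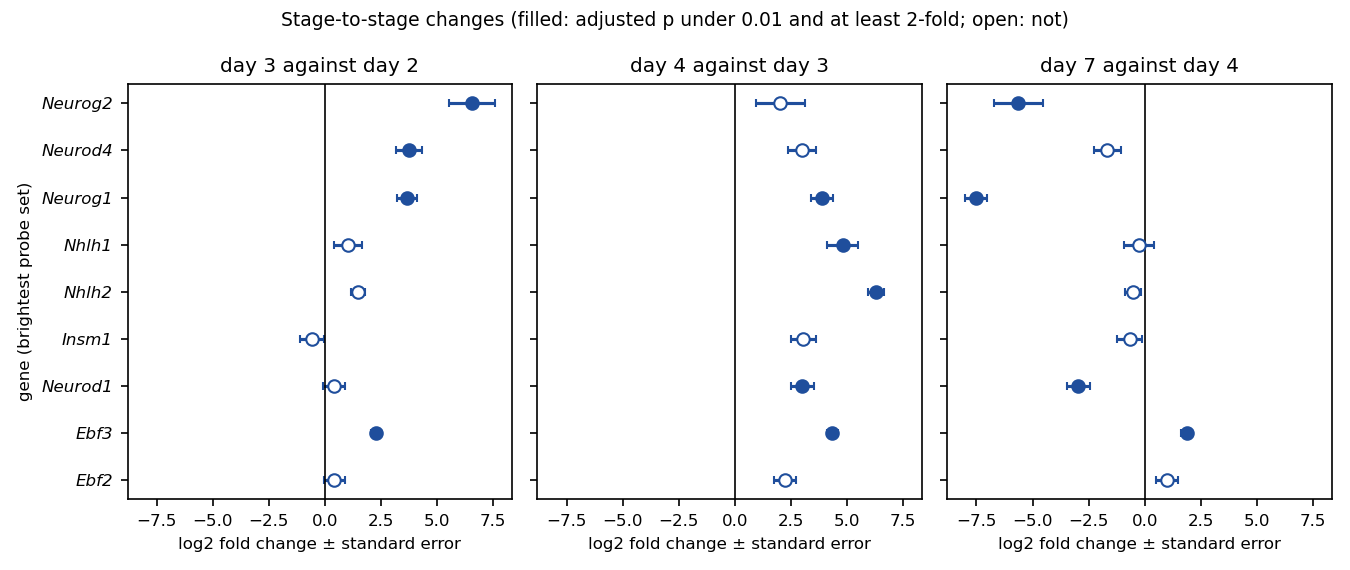
Log2 fold change of the brightest probe set of each gene (x axis, with limma's standard error as bars) for the steps into day 3, into day 4 and into day 7, each from the stage labelled in the panel. Filled points passed an adjusted p of 0.01 at 2-fold or more in the fit of all arrays. Neurog2 has the largest value at day 3 (6.55), Nhlh2 at day 4 (6.30) and Neurog1 the lowest at day 7 (-7.53).

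The order of onset was described without a test, as the first stage whose mean reached the midpoint between a gene's lowest and highest stage means. It was day 3 for Neurog2 and Neurod4, at 76.6% and 64.5% of their range. Neurog1 stood at 48.6% of its range at day 3, with 1 of 3 arrays over the midpoint, and passed it at day 4. Leaving out day 3 replicate 1, day 3 replicate 2 or day 4 replicate 3 raised the number of genes with onset at day 3 from 2 to 3. Nhlh1 (24.6% at day 3), Nhlh2 (19.0%), Ebf3 (27.3%), Ebf2 (12.6%) and Insm1 passed the midpoint at day 4. Neurod1 was over it at day 0 (60.6%), under it from day 2 to day 3 (11.7% at day 3) and over it again at day 4. On its other probe set the day 0 mean reached 49.3%. The peak was at day 4 for 7 genes and at day 7 for Ebf2 and Ebf3. By day 7, Neurog1 (0.0395% of its range), Neurog2 (34.8%) and Neurod1 (12.6%) were under the midpoint, while Neurod4 (80.1%), Insm1 (77.9%), Nhlh2 (93.3%) and Nhlh1 (96.0%) were over it. The 2 dimmer Ebf3 probe sets passed it at day 7 (46.4% and 46.5% at day 4), and the dimmer Insm1 probe set did so with 8 h of RA. The 4 probe sets that never reached the background level were left out of this description.

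**Figure D3:**
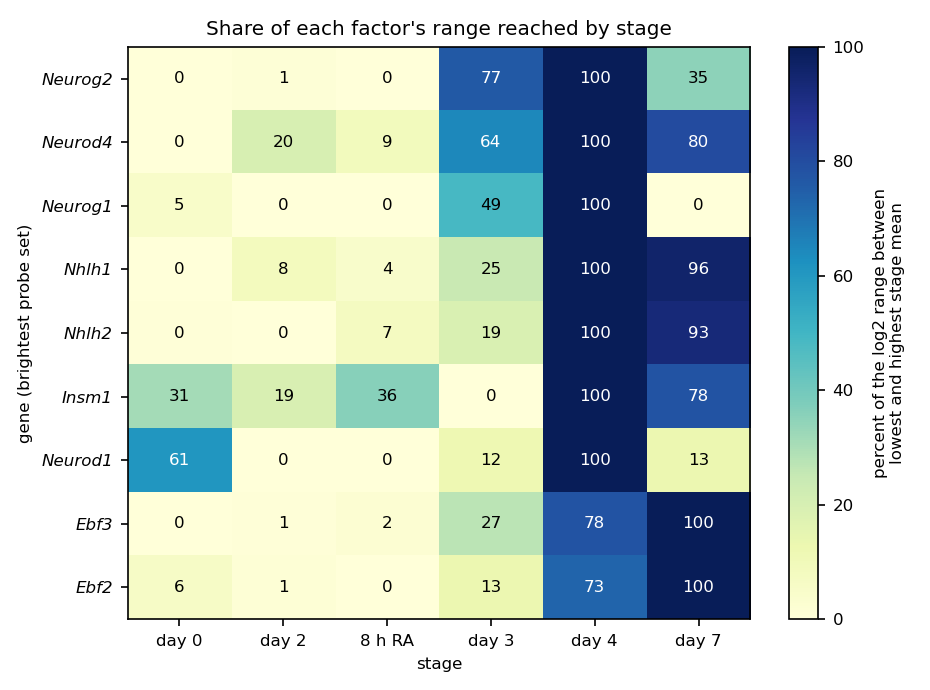
Percent of the log2 range between the lowest and highest stage mean that each gene's brightest probe set had reached at each stage (rows, genes; columns, stages; darker is higher). Neurog2 and Neurod4 pass 50% at day 3, and Neurog1, Neurog2 and Neurod1 are under it again at day 7.

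In the order of stage means, 8 of the 45 pairs of neighbouring stages over the 9 genes differed at an adjusted p under 0.01, against 3.93% of the neighbouring pairs over all genes. For Ebf3 the order day 7, day 4, day 3 and 8 h of RA was resolved at each of these steps. For Neurog1, day 4 over day 3 and day 3 over day 0 were resolved, and day 0, 8 h of RA, day 7 and day 2 below them were not. For Neurod4, day 3 over day 2 was resolved, but day 4, day 7 and day 3 above were not resolved from their neighbours. For both Nhlh1 and Nhlh2, day 7 over day 3 was resolved and day 4 over day 7 was not. No neighbouring stages were resolved for Neurog2, Neurod1, Ebf2 or Insm1, although for Neurog2, Neurod1 and Ebf2 some stages farther apart in the order were.

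The day 7 arrays were not alike. Across the brightest probe sets of all genes, replicates 3 and 4 correlated at 0.995 and differed over 2-fold in 321 of 18193 genes. Replicate 5 correlated with them at 0.985 and 0.983 and differed in 1521 and 2095 genes. Replicate 5 was 5.52 above the mean of the other two on the log2 scale for Neurog2 and 1.33 above for Neurod1. It was lower for 4 genes, with differences of -1.98 for Neurod4, -2.09 for Nhlh1, -1.83 for Ebf2 and -1.67 for Insm1. Nhlh2 (-0.25), Ebf3 (0.33) and Neurog1 (0.00) differed little. Over all genes, 0.808% were at least 2 units above on replicate 5 and 0.418% at least 2 units below. Of the other genes, chosen for the figure with their values known, Olig2 gave 7.69, 9.09 and 10.34 on replicates 3, 4 and 5, Sox10 gave 6.88, 9.04 and 11.05, and the glial gene S100b gave 2.24, 2.30 and 6.35. In the glial and motor neuron progenitor lists the direction on replicate 5 was mixed. Aqp4 gave 5.72, 4.79 and 4.00 on replicates 3, 4 and 5, Nkx6-1 gave 9.37, 8.91 and 7.36, and Nkx6-2 gave 7.23, 7.90 and 9.67. Of the 5 glial markers measured, 3 were called higher at day 7 than at day 4 (Aqp4, Mbp and Aldh1l1), and Gfap was under the background level on every day 7 array. The summed glial signal was 10.06, 10.20 and 10.14 at day 7, against 7.91 to 8.44 at day 4. The summed signal of the 7 pan-neuronal markers was 15.29, 15.22 and 15.03. The part of other cell types in the high Neurog2 value of replicate 5 was not tested.

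**Figure D4:**
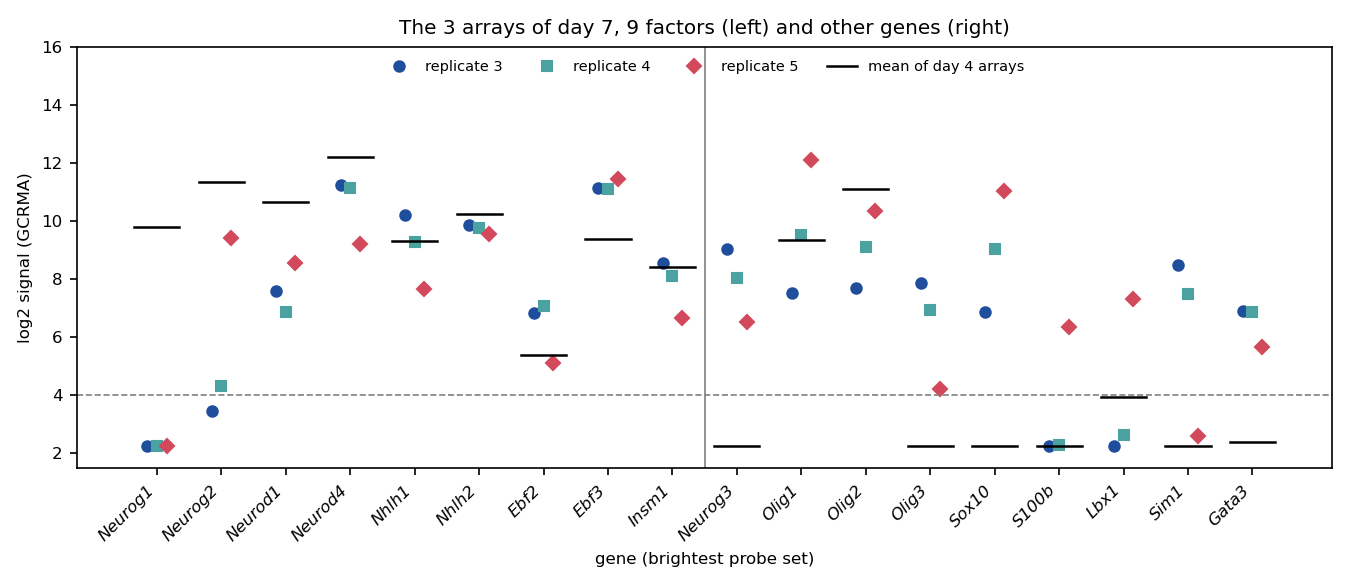
Log2 signal (y axis) of each gene on the 3 day 7 arrays (symbols), with the mean of the day 4 arrays as a black bar and the background level of 4 as a dashed line. The 9 factors are on the left, and other bHLH, progenitor, glial and interneuron genes on the right. Replicate 5 lies apart from replicates 3 and 4 for Neurog2, S100b, Lbx1 and Sim1, while Olig1 and Sox10 rise from replicate 3 to 4 to 5.

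Markers of the labelled cell types were measured beside the 9 genes. Of 5 ES cell markers, 5 were called lower at day 3 than at day 2, Pou5f1 among them. Of the pan-neuronal genes, 2 of 7 were called lower at day 3 than at day 2 (Tubb3 and Stmn2), with a list median of -0.25. Against day 3, 6 of 7 were called higher at day 4, and 7 of 7 at day 7 against day 4. Stmn2 gave 11.75 to 12.38 at day 0, above its day 4 arrays (8.22 to 9.83). Of 8 motor neuron genes, 3 were called higher at day 4 (Isl1, Lhx3 and Lhx4) and 5 at day 7. With the replicate block in the fit of days 2 to 4, 1 of the 6 pan-neuronal calls at day 4 remained (Dcx), 0 of the 3 motor neuron calls, and 1 of the 5 ES cell calls at day 3 (Tdgf1). The 2 pan-neuronal calls at day 3 were lost. Chat, which makes acetylcholine, was under the background level on every day 7 array (2.31, 2.88 and 2.24), while Slc18a3, which loads it into vesicles, gave 6.40, 6.85 and 7.86.

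The E proteins Tcf3, Tcf4 and Tcf12, the dimer partners of proneural proteins, were above the background level on every array. Of these 3, 0 were called at the steps from day 2 to day 3, on to day 4 or on to day 7. Their median differences were 0.21, 0.24 and 0.19, against 0 over all genes tested at each step. At day 7 against day 2, Tcf4 and Tcf12 were called higher.

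Of the Notch ligands and modifiers, Dll1 and Lfng rose with Neurog2 at day 3. Dll1, a Notch ligand, gave 5.38 to 6.23 at day 2 and 7.74, 8.21 and 8.46 at day 3, a rise of 5.33-fold (adjusted p = 0.0089). Lfng, which modifies Notch, rose 13.8-fold (adjusted p = 6.7e-05). Hes6, which favours neuronal commitment, was called lower at day 3, by 3.16-fold (adjusted p = 0.0031). At day 4, 1 of 6 was called higher, the ligand Dll3, at 11.0-fold (adjusted p = 0.0037), and 0 of 6 were called in either direction from day 4 to day 7. The medians over the list were 0.43, 1.25 and -0.74 at the 3 steps. Under the block in the fit of days 2 to 4, Lfng and Hes6 remained called at day 3, and the calls of Dll1 at day 3 and Dll3 at day 4 were lost.

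Some inhibitors of the proneural step rose at day 3. Of 9 Id, Hes, Hey and Rest genes, 4 were called higher than at day 2 (Id1, Id2, Id3 and Hes5) and 1 lower (Rest, on a probe set other than the brightest), with a median of 0.87. Id1 had been called lower at day 2 than at day 0. Its means at days 0, 2 and 3 were 6.09, 3.29 and 5.68, and those of Id2 were 10.50, 9.33 and 10.94. Those of Id3 were 7.44, 7.78 and 9.62, and those of Hes5 were 2.37, 2.59 and 9.53. At day 4, 1 of the 9 was called, Hey1, 3.04-fold higher (adjusted p = 0.0022). The blocked fit of days 2 to 4 kept the calls of Id1, Hes5 and Rest at day 3 and lost those of Id2, Id3 and, at day 4, Hey1. Hes5, a repressor induced by Notch, gave 2.44 to 2.82 at day 2 and 9.09, 9.45 and 10.06 at day 3, at least 46.3-fold higher (adjusted p = 5.8e-08). From day 4 to day 7 it fell 5.42-fold (adjusted p = 0.00034), and Rest fell 2.65-fold (adjusted p = 3.1e-05). Id4 rose 21.1-fold at that step (adjusted p = 4e-05) and Hey1 rose 4.00-fold (adjusted p = 2.6e-05), with a list median of 0.025. Across the whole series Rest ran from 13.20 to 13.46 at day 0 down to 9.79 to 10.27 at day 7.

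Of 13 genes known to act after the proneural step, 1 was called at day 3 (Sox11), 3 at day 4 and 6 at day 7 against day 4, all higher, with medians of 0.68, 1.48 and 1.04. At day 4 these were St18, a zinc finger factor (at least 26.1-fold, adjusted p = 1e-06), the repressor Scrt2 (at least 17.1-fold, adjusted p = 1.4e-06) and the splicing factor Srrm4 (9.28-fold, adjusted p = 0.00092). The blocked fit of days 2 to 4 called Sox11 at day 3 and 0 of these 3 at day 4. In this fit and in that of all arrays the Sox11 call came from a probe set other than its brightest. St18 gave 2.29, 2.36 and 3.08 at day 3 and 8.40, 9.34 and 8.38 at day 4. At day 7 the called genes were Cbfa2t3, Myt1l, St18, Scrt1, Scrt2 and Sox4, of which St18 and Sox4 were called on probe sets other than the brightest.

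**Figure D5:**
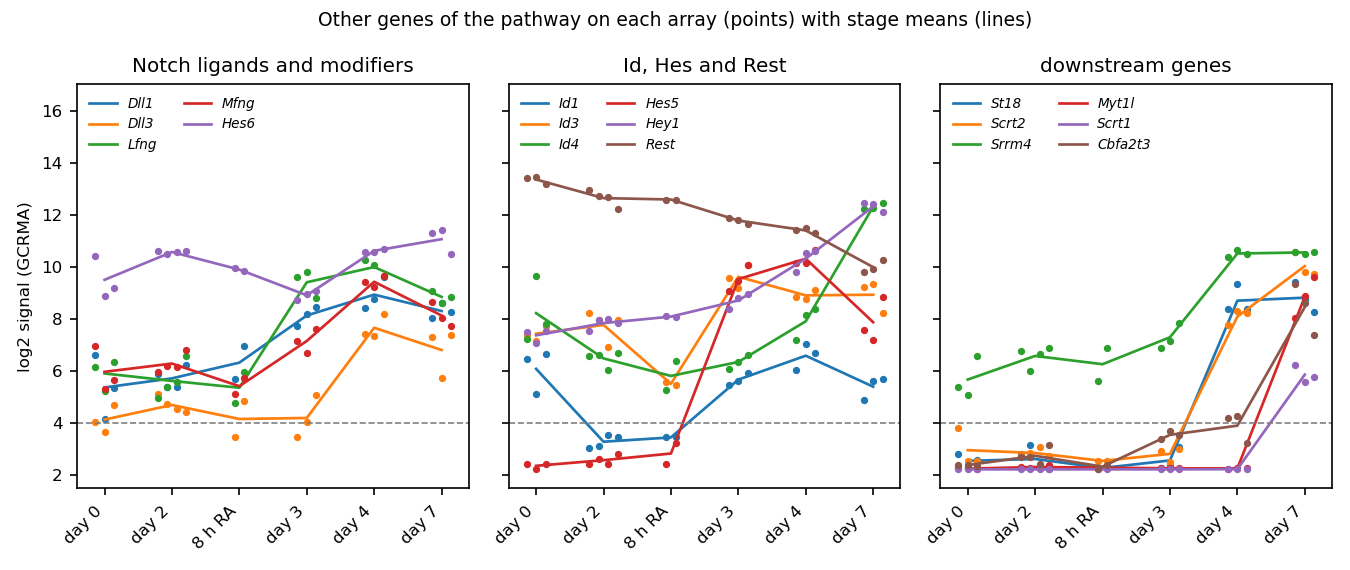
Log2 signal (y axis) by stage (x axis) of Notch ligands and modifiers, of Id, Hes and Rest genes and of downstream differentiation genes. Points are arrays, lines join stage means, and the dashed line is the background level of 4. Hes5, Dll1 and Lfng rise at day 3, St18, Scrt2 and Srrm4 at day 4, and Myt1l, Scrt1 and Cbfa2t3 at day 7.

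Among 11 other neural bHLH, Ebf and related factors measured, 0 were called at day 3 against day 2 or at day 4 against day 3. At day 3 against 8 h of RA, Olig2 was called higher and Ebf1 lower. The Olig2 means were 7.07, 8.58 and 11.10 at days 2, 3 and 4, and the arrays of these stages did not overlap. Its standard error, as for Neurog2, includes a wide day 7 spread (standard deviation 1.33, against 0.36 at day 3 and 0.16 at day 4). In the blocked fit of days 2 to 4, Olig1 was called lower at the former step and higher at the latter. From day 4 to day 7, 5 were called higher (Neurog3, Neurod2, Olig3, Ebf1 and Ebf4) and 1 lower (Olig2, by 4.16-fold, adjusted p = 0.0096), with a median of 0.38. Neurog3, the third neurogenin, was at 2.24 on each of the 15 arrays up to day 4 and gave 9.03, 8.03 and 6.51 at day 7, at least 14.5-fold higher (adjusted p = 5.1e-07). Neurog3 thus rose over the step at which Neurog1 and Neurog2 fell. Atoh1 and Ptf1a stayed under the background level on every array.

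Likeness of pattern was described as the Pearson correlation over the 18 arrays with the brightest probe sets of 4191 genes. The points share 6 stages, and no test was made. The gene most like Neurog1 was Grrp1 (0.989), which was 5.24 at day 3, 6.97 at day 4 and 3.43 at day 7 as stage means. For Neurog2 it was Eya4 (0.942), followed by Hes5 (0.933). For Neurod4 it was Prox1 (0.966), for Nhlh2 it was Elavl4 (0.982) and for Ebf3 it was Lin7a (0.993). For Nhlh1 it was Rgs8 (0.980), with Nhlh2 next (0.972). For Ebf2 it was Ppp1r17 (0.973), for Neurod1 it was Ppp1r14a (0.864) and for Insm1 it was St18 (0.851). Among the 9 genes themselves the closest pairs were Nhlh1 with Nhlh2 (0.972) and Nhlh2 with Ebf3 (0.970), Neurog1 and Neurog2 correlated at 0.870, and the least alike were Neurog2 and Insm1 (0.290).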

How the data were processed

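Amplified RNA was read on 18 Affymetrix Mouse Genome arrays. The authors deposited log2 signals, 1 per probe set, from a joint GCRMA run, which estimates background from each probe's bases, equalizes the arrays' distributions and joins the probes of a set. The GCRMA version and genome build are not given in the sources used here. Values were used as deposited. After 64 control probe sets were set aside, 45037 were tested, of which 34945 carry a single symbol. Stages and replicate numbers came from the sample labels. The study's methods describe biological triplicates, and the labels do not tie arrays to separate cultures, so p-values measure the spread between arrays.

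Limma 3.58.1 in R 4.3.3 fitted 6 group means to the 18 arrays (12 residual and 0.515 prior degrees of freedom), with Benjamini-Hochberg adjustment over 45037 probe sets, in 7 comparisons. Genes were called at an adjusted p under 0.01 and 2-fold, the thresholds that the study's methods give for the RA comparison. Each gene is represented by its probe set of highest mean. Because all stages share 1 estimate of spread, stages at the floor of the scale make the standard errors too small for the others. A stage with a wide spread, such as day 7 for Neurog2, makes them too large for the others. The fit was tested on simulated data. Figures were drawn in matplotlib 3.10.9 (Python 3.11.15). Precision is limited by the 2 to 4 arrays per stage.

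Named genes were the members, 5 pathway lists, 10 marker lists and the genes most like each member. Genes on these lists without a probe set of their own were not analysed here. The members and lists were chosen with earlier results of these data known. Replicate numbers were checked by the correlation of same-numbered arrays' deviations from their group means over all probe sets, which was 0.48, 0.35 and 0.48 for days 2 and 3. For days 3 and 4 it was 0.64, 0.42 and 0.75. The numbers thus pair these stages. The fit behind the printed values has no block, and blocked fits were run as alternatives. For the other comparisons the correlations were -0.45 to 0.21. Alternatives were other sample sets, the block, moderation, filters, normalizations, ways to join probe sets, a looser threshold and each array left out in turn. The fits of days 2 to 4 were added after the data were seen.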

Additional observations from a re-analysis of the deposited data

Results flagged for a closer look

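Of 9 groups of 4 arrays examined (each gene's brightest probe set at day 2), 2 held an array flagged as apart from the rest. In both groups the other arrays shared the same value, so any differing array is flagged whatever its distance. The usual chance rate of about 1 in 20 groups therefore does not apply. For Neurog1 at day 2, replicate 1 gave 2.24 and the nearest other array 2.25. For Ebf3 at day 2, replicate 3 gave 2.48 and the nearest other array 2.84. Both groups lay wholly under the background level of 4, and no comparison was decided by these arrays.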

How the results depend on the processing

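Across the alternatives, 0 of the 35 member fold changes of 2-fold or more changed direction. Of the 28 smaller ones, 20 changed sign under at least 1 alternative and 0 were called under any. The 5 calls at day 7 against day 2 and the fall of Neurog1 from day 4 to day 7 kept their side of the threshold in all alternatives run for them (20 and 17). With replicate number as a block, fits of 2 stages alone called 0 of the 9 genes higher at day 3 against day 2 and 0 at day 4 against day 3, and the blocked fit of days 2 to 4, chosen after seeing the data, called 2 and 0. Those days without the block gave 4 and 5. In the fit of all arrays the block gave 4 and 5, and Neurod1 lost its calls at day 4 (adjusted p = 0.0298) and at day 7 (adjusted p = 0.01, just over the threshold). Fits of the 2 compared stages alone without the block called 0 of the 9 higher at day 3 against 8 h of RA, 0 at day 4 against day 3 and 0 at day 7 against day 4. Over all genes those fits called 21, 6 and 780 higher. With values raised to the background level, 1 of the 9 (Neurod4) and 286 of all genes were called higher at day 3 against 8 h of RA. Under that setting Neurog1 also lost its call at day 3 against day 2 (adjusted p = 0.0132). From day 0 to day 2, 1 gene (Neurod1) was called lower when dim probe sets were left out, and 1 with an adjusted p under 0.05. Calls at day 3 against 8 h of RA did not all hold without either RA array, which leaves 1 array at that stage, and fewer of all genes were then called. Neurog2 lost its call there without any 1 of the day 3 arrays. Leaving out 1 array at a time gave 3 to 7 of the 9 higher at day 4 against day 3. The 3 were Neurog1, Nhlh2 and Ebf3, without day 4 replicate 2, where 82 of all genes were called higher. The cause of these differences was not tested. The 8 h stage has 2 arrays, and changes under the background level could not be measured.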

Other observations

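Other genes of the ventral and dorsal spinal cord, among them interneuron genes, were also measured at day 7. The interneuron gene Sim1 gave 8.47 and 7.47 on day 7 replicates 3 and 4 and 2.58 on replicate 5, whereas Lbx1 gave 2.24 and 2.62 on replicates 3 and 4 and 7.33 on replicate 5. Gata3 gave 6.89, 6.87 and 5.66 on replicates 3, 4 and 5. Of the other interneuron markers measured, Lhx1 gave 8.01, 8.97 and 10.33 on these replicates. Lhx5, Evx1 and En1 were under the background level on every day 7 array. Olig3, a bHLH factor of dorsal progenitors, gave 7.89, 6.95 and 4.23, with 2.24 to 2.25 on the day 4 arrays. Olig1 gave 7.52, 9.52 and 12.11 on replicates 3, 4 and 5, and 9.15 to 9.54 at day 4.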
